A study of Homo sapiens with 21 samples.

Results

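The clustered replication-dependent histone genes were followed in cells labelled HepG2 over a 6 h exposure to 7 concentrations of coumarin. The members were the rows of the gene count table annotated as protein coding whose symbol begins with HIST and a cluster number from 1 to 4 followed by H, which gave 71 of 58735 genes. They comprised 6 H1, 17 H2A, 18 H2B, 15 H3 and 15 H4 genes. HIST1, the large cluster on chromosome 6, held 55 of them, HIST2 on chromosome 1 held 12, HIST3, also on chromosome 1, held 3, and HIST4 on chromosome 12 held 1.

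Replication-dependent histone genes supply the proteins that wrap newly copied DNA, with H2A, H2B, H3 and H4 forming the nucleosome core and H1 binding the linker DNA. Their transcription and messenger stability are tied to S phase, and most of their messages end in a conserved stem-loop, bound by SLBP, in place of a poly(A) tail. Several clustered genes, HIST1H1C, HIST1H2BD and HIST2H2BE among them, can also give polyadenylated transcripts that use a signal downstream of the stem-loop.

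Coumarin, a plant-derived benzopyrone, was given at 0, 0.001, 0.01, 0.1, 1, 10 and 100 µM. Each group had 3 libraries, 21 in all, and every group, the 0 µM cells included, was held in medium without serum for the 6 h. RNA was selected with poly(dT) beads before reverse transcription, per the labels' protocols, so a histone message without a tail is read only as far as it passes that selection. The labels call the libraries of a group biological replicates without saying that they came from separate cultures, so p-values measure the spread between these libraries, which may be partly technical.

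Library totals were 27984517 to 43704155 counts, and reads of mitochondrial genes took 5.61% to 6.63% of them. HepG2 is an established liver tumour line, but of 12 hepatocyte markers 1, FOXA1, passed the filter on low counts, and ALB, SERPINA1 and FGB had no read in any library. Of the markers of other cells, 4 of 6 epithelial and 6 of 7 mesenchymal genes passed it. The label was therefore not matched by the hepatocyte markers, and the cells are called here by their label only. Levels are given as CPM, the counts of a gene scaled to TMM-normalised library size, as single libraries or as mean ± SD of 3 libraries. A gene was called where the adjusted p of edgeR's quasi-likelihood test over 16196 genes was under 0.05.

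The stem-loop was searched on the sense strand as GG, 2 free bases, CTT, 1 free base, T, 1 free base, AG, 2 free bases and CC. It was found in the annotated GENCODE transcripts of 32 members, 24 of which passed the filter on low counts. The other 39 members had none, and 35 of those 39 models have a length divisible by 3 and of at most 681 bases, so that they may hold little or nothing beyond the coding part. The forms of the 16-base element are printed because they show where the H4 genes differ from the other types, with capitals marking the stem and lower case the 4-base loop.
H2A, H2B and H3 form, in 17 members: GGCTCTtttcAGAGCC
H2B and H3 form with another last loop base, in 5 members: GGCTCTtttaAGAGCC
HIST1H2AG form, in 1 member: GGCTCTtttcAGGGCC
HIST1H3E form, in 1 member: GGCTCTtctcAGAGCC
H4 form, in 5 members: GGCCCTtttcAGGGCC
second H4 form, in 3 members: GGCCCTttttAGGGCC
The pattern itself fixes 10 of the 16 bases, so the forms can differ only at the free ones. Both H4 forms carry GGCCCT and AGGGCC as their stem, and no H4 member had the stem of the 17. In 19 members an annotated transcript also held AATAAA, the bases of the poly(A) signal, after the stem-loop, among them HIST1H2AC, HIST1H2AG, HIST1H2BD and HIST2H2BE. The bases were counted at any distance from the stem-loop and from the transcript end, so a match does not show that the signal is used.

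At 100 µM the histone genes were higher than at 0 µM across types and clusters. Of the 37 members tested, 19 rose, 0 fell and 18 were not called, and the fitted change was positive in 36. The background was 8.58% of all genes tested called in either direction, 3.77% higher and 4.82% lower. The median log2 fold change was 0.65 over the 37 members and 0.00 over all genes. In RNA from whole cultures, more RNA per cell and more cells that make it cannot be told apart. The summed level of all members was 253, 249.7 and 253 CPM in the 100 µM libraries and 186, 164 and 179.6 CPM in the 0 µM libraries, so the groups did not overlap. Without the second 0 µM library, the lowest of its group, 12 of the 37 rose, and 774 of all genes were called in place of 1390. In 25 of the 37 tested members every 100 µM library stood above every 0 µM library, against 13.1% of all genes.

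By type, 1 of 2 H1, 3 of 7 H2A, 7 of 14 H2B, 1 of 6 H3 and 7 of 8 H4 genes rose at 100 µM, and none of any type fell. The median log2 fold change was 0.44 for H1, 0.65 for H2A, 0.66 for H2B, 0.50 for H3 and 0.78 for H4. By cluster, 15 of 29 HIST1, 2 of 5 HIST2, 1 of 2 HIST3 genes and the single HIST4 gene rose. Members with more reads were called more often. Of the 15 tested members with at least 1000 reads over the 21 libraries, 14 rose and HIST1H2BH did not pass, while of the 22 with fewer reads 5 rose, although 21 of the 22 had a positive fitted change and their median was 0.66, against 0.61 for the 15. Standard errors ran from 0.204 to 1.05 in the sparser set and from 0.048 to 0.172 in the deeper one.

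**Figure D1:**
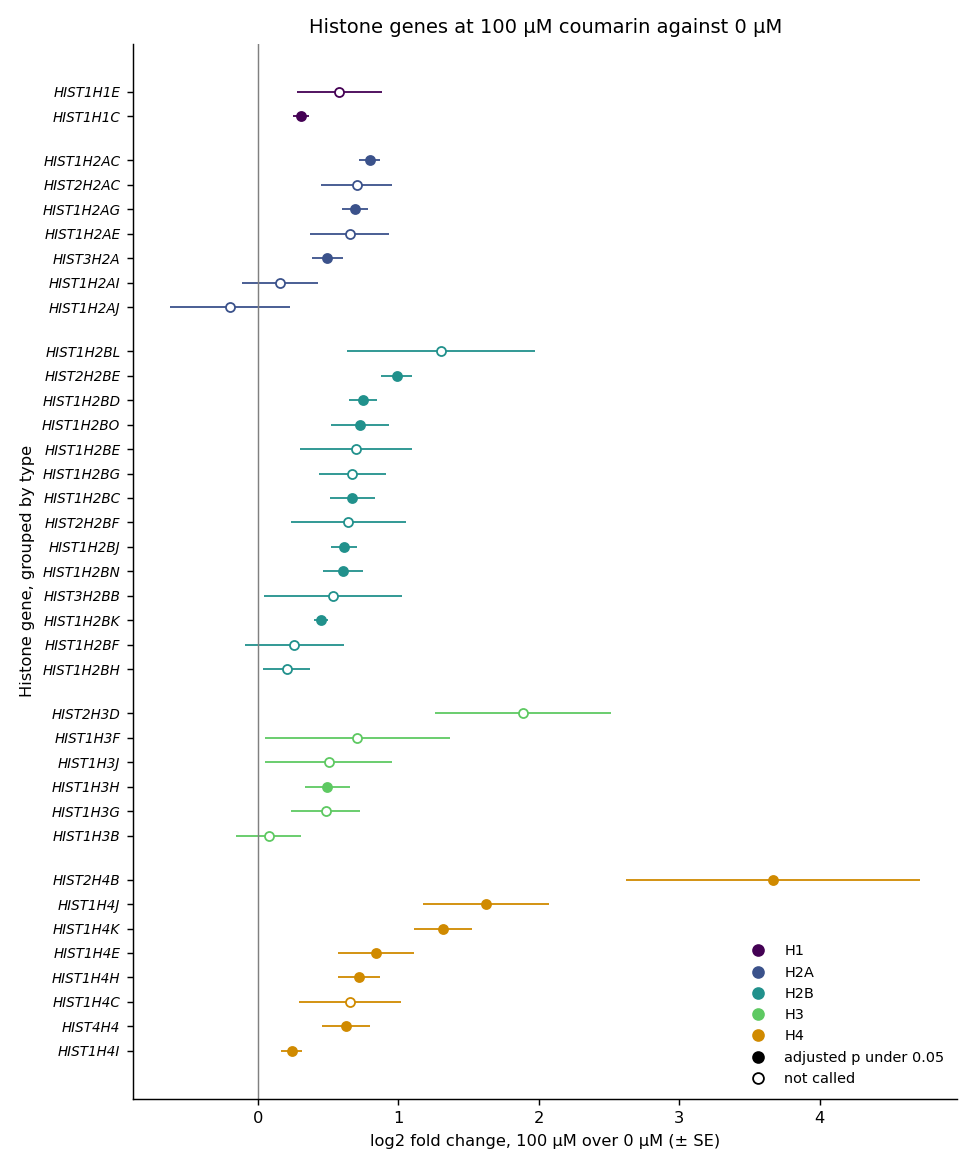
Fitted log2 fold change of each of the 37 tested histone genes at 100 µM over 0 µM (horizontal axis, points with bars of 1 SE), grouped by histone type down the page. Filled points mark the 19 genes with an adjusted p under 0.05, all to the right of 0. HIST1H2AJ alone has a point left of 0, and its bar crosses 0.

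Among the linker histones, HIST1H1C, which encodes H1.2, was the one abundant member, at 50.1, 49.1 and 48.01 CPM in the 100 µM libraries and 43.3, 36.3 and 39.1 CPM in the 0 µM libraries. The groups did not overlap, and it rose by 0.31 (SE 0.0589, adjusted p = 0.000677). HIST1H1E, which encodes H1.4, averaged 0.734 ± 0.144 CPM at 100 µM and 0.488 ± 0.151 CPM at 0 µM, with overlapping groups and an adjusted p of 0.249. The other 4 H1 genes did not pass the filter.

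HIST1H2AC (chr6:26124145-26139116, plus strand, GRCh38), an H2A gene of the large cluster, had the smallest adjusted p of the type. It stood at 26.2, 24.6 and 27.7 CPM in the 100 µM libraries and at 15.2, 14.9 and 15.2 CPM in the 0 µM libraries. The lowest 100 µM library lay well above the highest library of any other dose, which was a 10 µM one at 18.7 CPM. The group means from 0 to 100 µM were 15.1, 15.6, 15.5, 15.7, 16.5, 18.5 and 26.2 CPM, and the change at 100 µM over 0 µM was 0.80 on the log2 scale (SE 0.0731, adjusted p = 1.23e-09). Its 10 µM libraries, at 18.1, 18.7 and 18.6 CPM, also lay above all 0 µM libraries, but the adjusted p was 0.07002. Those of 1 µM, at 16.2, 16.02 and 17.3 CPM, lay above the 0 µM libraries too, again without a call.

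HIST1H2AG had 9.33, 9.32 and 10.01 CPM at 100 µM and 6.31, 5.53 and 5.83 CPM at 0 µM, with no overlap, and rose by 0.69 (SE 0.0918, adjusted p = 2.39e-06). HIST3H2A, the H2A gene of the small HIST3 cluster, had 11.05, 9.81 and 12.6 CPM at 100 µM and 8.35, 7.81 and 7.54 CPM at 0 µM and rose by 0.49 (SE 0.108, adjusted p = 0.00285). Its group means from 0 to 100 µM were 7.9, 8.94, 9.89, 9.73, 8.75, 10.1 and 11.1 CPM. Its 10 µM libraries lay above all 0 µM libraries, though 10 µM over 0 µM was not called (adjusted p = 0.173). The libraries of 0.01 µM (10.2, 10.04 and 9.45 CPM) and 0.1 µM (11.02, 9.78 and 8.39 CPM) also lay above them, without a call. The remaining tested H2A genes were sparse and were not called. HIST2H2AC averaged 1.03 ± 0.107 CPM at 100 µM and 0.624 ± 0.0592 CPM at 0 µM (adjusted p = 0.0776), and HIST1H2AE 0.94 ± 0.166 and 0.584 ± 0.162 CPM (adjusted p = 0.146), both without overlap of the groups. HIST1H2AI averaged 0.901 ± 0.163 CPM at 100 µM and 0.803 ± 0.0938 CPM at 0 µM, and HIST1H2AJ 0.402 ± 0.227 and 0.442 ± 0.179 CPM, with overlapping groups. HIST1H2AI and HIST1H2AJ are near copies, and 62.3% and 83.7% of their transcripts' 50-base words occur in transcripts of another gene, so reads could be split between them.

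The H2B genes formed the largest set that passed the filter. HIST1H2BK was the most abundant member per length as well as in counts, with 162 ± 7.13 FPKM at 100 µM and 119 ± 7.27 FPKM at 0 µM in the authors' table. Its counts gave 59.9, 63.6 and 58.2 CPM in the 100 µM libraries and 46.2, 41.6 and 45.3 CPM in the 0 µM libraries, without overlap. It rose by 0.45 (SE 0.048, adjusted p = 4.04e-08), and its group means from 0 to 100 µM were 44.3, 46.3, 47.01, 49.7, 47.8, 51.6 and 60.6 CPM. Its model covers the coding length only, and 74.1% of its 50-base words also occur in another gene, chiefly H2BFS, so its level is uncertain to that extent.

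HIST2H2BE (chr1:149884459-149886652, minus strand), the H2B gene of the HIST2 cluster, had its increase at the top dose. It stood at 10.7, 11.9 and 11.1 CPM in the 100 µM libraries, at 7.34, 4.7 and 5.65 CPM in the 10 µM libraries and at 5.95, 5.46 and 5.57 CPM in the 0 µM libraries. The 100 µM libraries all lay above the rest, whereas the 10 µM libraries straddled those of 0 µM. The change over 0 µM was 0.99 at 100 µM (SE 0.11, adjusted p = 9.03e-08) and 0.06 at 10 µM (SE 0.118, adjusted p = 0.865).

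HIST1H2BD (chr6:26158146-26171349, plus strand) was called at 10 µM as well as at 100 µM. Its libraries had 10.9, 9.47 and 11.6 CPM at 100 µM, 8.4, 8.07 and 9.97 CPM at 10 µM and 6.55, 5.95 and 6.48 CPM at 0 µM, and both treated groups lay wholly above the 0 µM group. It rose by 0.75 at 100 µM (SE 0.1001, adjusted p = 3.01e-06) and by 0.48 at 10 µM (SE 0.102, adjusted p = 0.024), while 100 µM over 10 µM was not called (0.27, adjusted p = 0.104). Its mean at every dose from 0.001 to 1 µM, 7.26 to 8.24 CPM, was also above the 0 µM mean of 6.33 CPM, and none of those 4 differences was called (adjusted p from 0.544 to 0.99998). HIST1H2BD overlaps LARP1P1 on its own strand and AL353759.1 on the other, and the sources used here do not say whether reads were counted by strand.

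HIST1H2BJ had 9.6, 8.95 and 8.29 CPM at 100 µM and 6.33, 5.08 and 6.04 CPM at 0 µM and rose by 0.61 (SE 0.0941, adjusted p = 3.08e-05). HIST1H2BC had 3.3, 3.24 and 3.32 CPM at 100 µM and 2.42, 1.51 and 2.18 CPM at 0 µM and rose by 0.67 (SE 0.161, adjusted p = 0.00633). Without the second 0 µM library, its lowest, HIST1H2BC had an adjusted p of 0.0715. HIST1H2BN, whose model spans 3 other histone genes or pseudogenes, averaged 5.3 ± 0.43 CPM at 100 µM and 3.46 ± 0.565 CPM at 0 µM and rose by 0.61 (SE 0.143, adjusted p = 0.00523). HIST1H2BO averaged 1.83 ± 0.167 CPM at 100 µM and 1.1 ± 0.0376 CPM at 0 µM and rose by 0.73 (SE 0.204, adjusted p = 0.0209). The call of HIST1H2BO was lost without any 1 of the 0 µM libraries and without the second 100 µM library. In each of these 4 genes the 100 µM and 0 µM libraries did not overlap.

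Of the 7 H2B genes that were not called, HIST1H2BH was the deepest, at 2.71 ± 0.149 CPM at 100 µM and 2.33 ± 0.506 CPM at 0 µM, with a change of 0.21 (SE 0.166) and overlapping groups. HIST1H2BG averaged 1.116 ± 0.188 CPM at 100 µM and 0.694 ± 0.0936 CPM at 0 µM (adjusted p = 0.069), without overlap. The other 5 stayed under 1 CPM in every group: HIST1H2BE averaged 0.534 CPM at 100 µM and 0.332 CPM at 0 µM, HIST1H2BF 0.492 and 0.403, HIST1H2BL 0.232 and 0.0945, HIST2H2BF 0.715 and 0.453, and HIST3H2BB 0.34 and 0.236 CPM. In all 5 the groups overlapped.

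**Figure D2:**
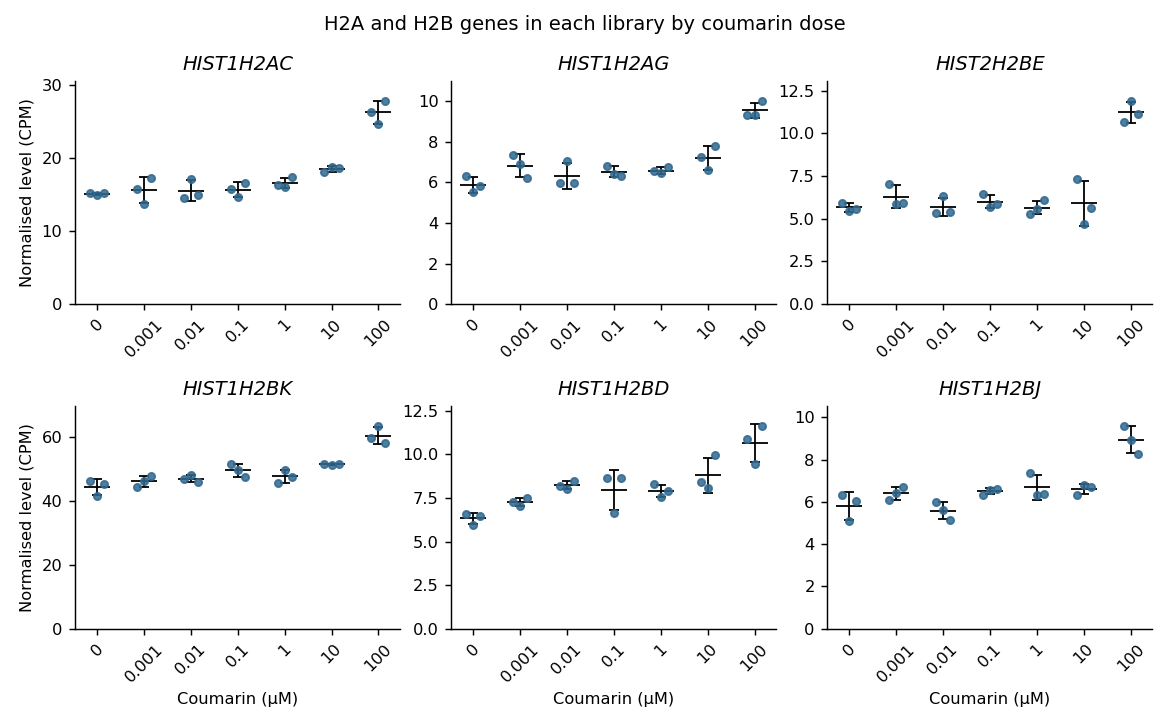
Normalised level in CPM (vertical axis, from 0) of 6 H2A and H2B genes at each coumarin dose in µM (horizontal axis), with 1 point per library and a line and bar for the mean ± SD of 3 libraries. The 100 µM libraries stand above all others for 5 of the 6 genes, as with HIST1H2AC at 26.2 CPM on average against 15.1 CPM at 0 µM. For HIST1H2BD the lowest 100 µM library lies below the highest 10 µM library.

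Many human H2A and H2B genes lie head to head and share a promoter region. In the annotation 12 pairs of members had start sites within 1000 bases of each other on opposite strands, with 218 to 356 bases between them, and 11 of these paired an H2A with an H2B gene. In 7 pairs both genes were tested, and in 2 both rose at 100 µM, HIST1H2BC with HIST1H2AC (0.67 and 0.80) and HIST1H2BJ with HIST1H2AG (0.61 and 0.69). In HIST2H2BE with HIST2H2AC, and in HIST3H2A with HIST3H2BB, the first gene rose and the second was not called, and in both cases the second was the one with fewer reads (707 and 181 over the 21 libraries, against 4838 and 6943). Of HIST1H3J with HIST1H2BO only HIST1H2BO rose. Neither gene was called in HIST1H2BG with HIST1H2AE (0.67 and 0.65) or in HIST1H2BL with HIST1H2AI (1.30 and 0.16). Taken singly, 19 of the 37 tested members rose, and whether paired genes rise together was not tested.

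The 150 bases before the RefSeq start are printed for the divergent pair in which both genes rose most and for HIST2H2BE. They are also printed for HIST1H2BK and HIST1H2BD, both called at 10 µM too, with the H4 gene HIST1H4K as a contrast. Capitals mark the octamer ATTTGCAT on either strand, the motif read by POU2F1 in H2B promoters, CCAAT on either strand, the motif read by NF-Y, and TATAAA on the sense strand.
HIST1H2AC, chr6:26124022-26124171, plus strand: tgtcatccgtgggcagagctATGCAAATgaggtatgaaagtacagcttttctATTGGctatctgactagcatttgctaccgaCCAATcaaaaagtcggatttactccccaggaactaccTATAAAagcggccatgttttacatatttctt
HIST1H2BC, chr6:26123927-26124076, minus strand: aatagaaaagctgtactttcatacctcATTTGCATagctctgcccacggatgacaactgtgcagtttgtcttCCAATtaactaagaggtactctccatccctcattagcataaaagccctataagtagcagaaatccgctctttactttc
HIST2H2BE, chr1:149886683-149886832, minus strand: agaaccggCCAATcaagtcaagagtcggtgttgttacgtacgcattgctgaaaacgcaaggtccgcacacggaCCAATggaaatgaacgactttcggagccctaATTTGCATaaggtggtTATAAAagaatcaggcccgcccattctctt
HIST1H2BK, chr6:27146859-27147008, minus strand: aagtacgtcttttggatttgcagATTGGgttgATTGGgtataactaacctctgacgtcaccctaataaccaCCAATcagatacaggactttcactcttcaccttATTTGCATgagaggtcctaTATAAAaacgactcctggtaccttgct
HIST1H2BD, chr6:26157971-26158120, plus strand: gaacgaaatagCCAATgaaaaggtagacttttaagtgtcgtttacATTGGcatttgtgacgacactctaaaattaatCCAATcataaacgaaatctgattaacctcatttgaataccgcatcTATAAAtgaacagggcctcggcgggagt
HIST1H4K, chr6:27831561-27831710, minus strand: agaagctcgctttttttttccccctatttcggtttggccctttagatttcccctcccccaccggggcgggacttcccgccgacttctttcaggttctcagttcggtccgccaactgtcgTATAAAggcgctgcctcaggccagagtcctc
These sequences are RefSeq's, build GRCh38.p14. The windows of HIST1H2AC and HIST1H2BC overlap, and the octamer in both is the same 8 bases, at chr6:26124042-26124049.

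RefSeq promoter windows, from 250 bases before to 50 after the start, were matched for 66 of the 71 members. The octamer was in 26 of the 66, 39.4%, against 1.8% of 27305 promoters. It was in 11 of 16 H2A and 14 of 18 H2B promoters, in 1 of 13 H3 promoters and in none of the 6 H1 and 13 H4 promoters. At 100 µM it was in 5 of 7 H2B genes that rose and 5 of 7 that were not called. For H2A genes the octamer was in 2 of 3 that rose and 3 of 4 that were not called. CCAAT was in 84.8% of member promoters and 35.7% of all promoters, and in 3 of 13 H4 promoters against every matched H1, H2A, H2B and H3 promoter. TATAAA was in 59.1% of member promoters and 7.71% of all. None of these motifs overlapped another within the printed stretch of any of the 66.

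The H3 genes were the sparsest type, and 1 of 6 rose. HIST1H3H averaged 3.71 ± 0.633 CPM at 100 µM and 2.63 ± 0.196 CPM at 0 µM, and its change of 0.49 had an adjusted p of 0.0499, the member just inside the threshold. HIST2H3D, at 0.297, 0.512 and 0.436 CPM in the 100 µM libraries and 0.248, 0.07001 and 0 CPM in the 0 µM libraries, was just outside it, at 0.0553. The call of HIST1H3H (SE 0.161) was lost in 20 of 32 alternative settings, among them without any 1 of the 0 µM libraries and without the first or the third 100 µM library. HIST1H3B, 1.13 ± 0.277 CPM at 100 µM and 1.07 ± 0.199 CPM at 0 µM, had the smallest change of the type, 0.08 (SE 0.232). HIST1H3F averaged 0.247 CPM at 100 µM and 0.149 CPM at 0 µM, HIST1H3G 1.06 and 0.756 CPM, and HIST1H3J 0.357 and 0.25 CPM, and none of them was called.

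Nearly all human H4 genes encode the same protein, and 7 of the 8 tested rose at 100 µM. HIST1H4I was the abundant one, at 23.1, 20.6 and 22.3 CPM in the 100 µM libraries and 20.2, 16.4 and 18.96 CPM in the 0 µM libraries, and had the smallest change of the type, 0.24 (SE 0.0754, adjusted p = 0.0412). The 100 µM libraries lay above those of 0 µM by a narrow margin, and the call was lost without the second or the third 0 µM library, without the first or the third 100 µM library, and in 8 of 32 settings in all. HIST1H4H had 3.86, 4.89 and 5.35 CPM at 100 µM and 2.62, 2.56 and 3.39 CPM at 0 µM and rose by 0.72 (SE 0.148, adjusted p = 0.00147). HIST4H4, the single gene of the HIST4 cluster, had 2.77, 2.44 and 2.76 CPM at 100 µM and 1.54, 1.61 and 2.002 CPM at 0 µM and rose by 0.63 (SE 0.172, adjusted p = 0.0182). In both genes the groups did not overlap, but the call of HIST4H4 was lost without the first or the second 0 µM library and without the first or the third 100 µM library.

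HIST1H4K had 2.18, 1.79 and 2.44 CPM in the 100 µM libraries and 0.689, 0.91 and 0.972 CPM in the 0 µM libraries and rose by 1.32 (SE 0.207, adjusted p = 3.99e-05), the H4 change with the smallest adjusted p. All of the 50-base words of its model occur in another gene, chiefly HIST1H4J, which had 0.462, 0.398 and 0.756 CPM at 100 µM and 0.0826, 0.21 and 0.236 CPM at 0 µM, so such reads do not tell the 2 genes apart. HIST1H4J rose by 1.62 (SE 0.449, adjusted p = 0.0187), and HIST1H4E, with 1.2 ± 0.251 CPM at 100 µM and 0.669 ± 0.0442 CPM at 0 µM, by 0.84 (SE 0.27, adjusted p = 0.0469). The call of HIST1H4J was lost without the first 0 µM library or the third 100 µM library. The call of HIST1H4E was lost in 15 of 31 alternative settings, among them without any 1 library of either group. HIST1H4C averaged 0.481 ± 0.0395 CPM at 100 µM and 0.305 ± 0.0534 CPM at 0 µM and was not called (adjusted p = 0.285).

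HIST2H4B had the largest fitted change of any tested gene at 100 µM, 3.67, with the widest error of the members (SE 1.05, adjusted p = 0.0433), and the call was lost in 14 of 31 alternative settings, among them without any 1 of the 0 µM libraries and without the second or the third 100 µM library. Its libraries had 0.495, 2.33 and 1.86 CPM at 100 µM and 0.0826, 0.105 and 0.177 CPM at 0 µM, those of 0 µM at the level of a few reads. The size of the change is therefore uncertain, and it ran from 0.74 to 4.07 over the settings, which include limma on log2(FPKM + 1). Libraries of the same dose differed widely at 0.001, 0.1, 1 and 10 µM, and the values were 0.966, 0.0771 and 0.116 CPM at 0.001 µM, 0.121, 0.146 and 0.153 CPM at 0.01 µM, 0.737, 1.16 and 0.107 CPM at 0.1 µM, 1.13, 1.14 and 0.29 CPM at 1 µM and 0.822, 0.136 and 0.756 CPM at 10 µM. It shares 97.2% of its 50-base words with another gene, chiefly HIST2H4A, which did not pass the filter. HIST2H4A had 1.72, 0.171 and 0.233 CPM at 100 µM and 0.0826, 0.14 and 0.118 CPM at 0 µM, and it was high in the 100 µM library where HIST2H4B was low.

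Levels per length allow genes to be compared. HIST1H1C followed HIST1H2BK with 78.1 ± 1.79 FPKM at 100 µM and 63.2 ± 6.05 FPKM at 0 µM in the authors' table. HIST1H4I had 17.4 ± 1.02 and 14.7 ± 1.65, HIST1H2AC 16.05 ± 0.959 and 9.27 ± 0.147, and HIST3H2A 12.7 ± 1.59 and 9.05 ± 0.51 FPKM at 100 µM and 0 µM. At 0 µM, HIST1H2AC and HIST3H2A did not differ beyond their spread. In counts, HIST1H2BK, HIST1H1C, HIST1H4I and HIST1H2AC together held 65.3% of all reads of the members. FPKM of the short, coding-only models depends on how much of a read must fall within the model, on which the sources used here say nothing.

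Another 34 members did not pass the filter and were not tested. Of these, 8 had no read in any library, namely HIST1H1D, HIST1H2AA, HIST1H2AD, HIST1H2AK, HIST1H2BA, HIST1H3D, HIST1H3I and HIST2H3PS2, and a count of 0 allows up to 0.0695 to 0.105 CPM per library (3 counts, covering counting error only). For HIST1H2AD, HIST1H2AK, HIST1H3D and HIST2H3PS2 it covers only reads assigned to them, since they overlap another gene and share 98.0% to 100.0% of their 50-base words with other genes. The other 26 had at most 149 reads over the 21 libraries, led by HIST2H4A with 149, HIST1H2AH with 120 and HIST1H3A with 93. HIST1H2AH is the divergent partner of the abundant HIST1H2BK. No change in these genes is reported.

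Reads that fit more than 1 gene bear on this family as a whole. Of the 37 tested members, 23 shared fewer than 10% of their 50-base words with any other gene, 12 of them none, and 7 shared over 50%. Of the 19 that rose at 100 µM, 13 were among the 23 and 4 among the 7. The 3′ ends of the models can be set beside the calls. Of 19 tested members with a transcript that extends more than 100 bases past the stem-loop, 12 rose at 100 µM. Of 5 with up to 100 bases past it 2 rose, and of 13 with no stem-loop in the model 5 rose. The medians of the log2 fold change were 0.64, 0.75 and 0.61 in these sets. Bases were counted only in transcripts that hold the stem-loop. HIST1H2BD, with 39 bases, is thus among the 5, and 0.75 is its own value, although it can give polyadenylated transcripts. The sets therefore do not separate genes with a polyadenylated message from those without one.

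Below 10 µM no histone gene was called against 0 µM by edgeR, with 0% of all genes called at any of the 4 doses. Over the members the unadjusted p was under 0.05 for 2, 4, 6 and 5 of the 37 at 0.001, 0.01, 0.1 and 1 µM (5.41%, 10.8%, 16.2% and 13.5%), against 8.21%, 8.74%, 6.09% and 3.76% of all genes. DESeq2 also called 0 members at each dose. The median log2 change of the members was 0.14, 0.10, 0.08 and 0.13 at these doses and 0.00 over all genes at each. These comparisons share the 0 µM libraries, whose second library had the lowest summed level of the members, 186, 164 and 179.6 CPM in order, so that a low 0 µM group raises all of them alike.

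At 10 µM, 2 histone genes rose against 0 µM, HIST1H2BD, described above, and HIST1H2BK, and none fell, with a background of 0.321% of all genes, 0.241% higher and 0.0803% lower. HIST1H2BK had 51.7, 51.4 and 51.6 CPM in the 10 µM libraries and rose by 0.22 over 0 µM (SE 0.0485, adjusted p = 0.0368). The median of the members was 0.18, against 0.00 over all genes. The summed level was 201, 200.4 and 207 CPM in the 10 µM libraries, each above every 0 µM library. The 1 µM libraries, at 189.8, 186.4 and 195.4 CPM, also lay above the 0 µM libraries, the highest of which had 186.04 CPM. Neither call was made without the second or the third 0 µM library, or without the third 10 µM library, and 1 was made without the first or the second 10 µM library or without the first 0.01 µM library. In all, the call of HIST1H2BK was lost in 10 of 32 settings, among them with the 2 groups fitted alone, and that of HIST1H2BD in 6. HIST1H2AC was called in 4 of 32 settings: no filter on low counts, the 2 groups fitted alone, DESeq2, and without the first 0.1 µM library.

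Against the 10 µM group, a comparison that shares the 100 µM libraries but uses none of the 0 µM libraries, 11 of the 37 members rose at 100 µM and none fell, with a background of 4.53%, 2.03% higher and 2.51% lower. HIST2H2BE rose most clearly, by 0.92 (SE 0.109, adjusted p = 5.01e-07), followed by HIST1H2AC (0.50, adjusted p = 1.51e-05) and HIST1H2BK (0.23, adjusted p = 0.00281). The others were HIST1H2AG (0.40), HIST1H2BC (0.55), HIST1H2BJ (0.43), HIST1H2BN (0.52), HIST1H2BO (0.84), HIST1H4E (0.98), HIST1H4H (0.57) and HIST1H4K (0.71). The call of HIST1H2BK was lost with an offset for gene length (adjusted p = 0.0822). HIST2H2BE, HIST1H2AC, HIST1H2AG, HIST1H2BJ and HIST1H2BK were called without each library in turn. HIST1H2BC lost its call without any 1 of the 10 µM or 100 µM libraries and without the first 0.01 µM library, and HIST1H2BN without any 1 of the first and the second 10 µM and the second and the third 100 µM libraries. Both were also lost in limma on log2(FPKM + 0.1). HIST1H4H lost its call without any 1 of the first and the third 10 µM and the second and the third 100 µM libraries, and HIST1H2BO without any 1 of the first and the third 10 µM and the second 100 µM libraries. HIST1H4E and HIST1H4K lost theirs without any 1 of the first and the second 10 µM and the first and the third 100 µM libraries. The count was 5 without the first 10 µM library, 7 without the second, and 6 without the third 100 µM library. Of all genes, 282 were called without the first 10 µM library and 402 without the third 100 µM library, in place of 734.

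Against the mean of the 4 groups from 0.001 to 1 µM, 19 members rose at 100 µM and none fell, with a background of 9.83%, 4.25% higher and 5.58% lower, and a median of 0.53 over the members and 0.00 over all genes. This comparison uses the same 100 µM libraries as the others but none of the 0 µM libraries. HIST1H2AC changed by 0.73 (SE 0.0548), HIST2H2BE by 0.93 (SE 0.0816), HIST1H2BD by 0.44 (SE 0.0748) and HIST1H2BK by 0.35 (SE 0.0369). HIST1H2BG, which was not called against 0 µM, was called here (0.66, SE 0.179, adjusted p = 0.0141, lost without the first or the second 100 µM library), while HIST2H4B was not (1.92, adjusted p = 0.0599). The call of HIST3H2A in this comparison (0.26) was lost in 16 of 32 settings, among them the offset for gene length and both limma fits. That of HIST1H4I (0.21) was lost in 5 of 32.

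Over all 7 groups, 12 members differed (background 4.65%), namely HIST1H1C, HIST1H2AC, HIST1H2AG, HIST1H2BC, HIST1H2BD, HIST1H2BJ, HIST1H2BK, HIST1H2BN, HIST1H2BO, HIST2H2BE, HIST1H4H and HIST1H4K. Without any 1 of the 100 µM libraries HIST1H1C, HIST1H2BC and HIST1H2BO were no longer called, nor were HIST1H2BN and HIST1H4H without the second or the third of them. HIST1H1C, HIST1H2BC and HIST1H2BN were also not called in limma on log2(FPKM + 0.1). The other 7 kept the call in all 30 settings. For slope over the 6 treated doses on a log10 scale, 11 members were called with a positive slope and none with a negative one (background 4.45%, 1.93% positive and 2.52% negative). The fitted slope was positive in 36 of the 37. The slope call of HIST1H2BO was lost in 20 of 30 settings, that of HIST1H2BC in 11 of 31 and that of HIST1H1C in 3 of 31. HIST1H4K had a fitted slope of 0.18 log2 units per 10-fold step of dose, HIST1H2AC 0.13, HIST2H2BE 0.12, HIST1H2BD 0.09 and HIST1H2BK 0.07. The top step alone, 100 µM over 10 µM, was 0.50 for HIST1H2AC and 0.92 for HIST2H2BE, several times their slopes.

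Summed by type, the levels from 0 to 100 µM were 40.2, 42.8, 41.98, 42.4, 43.2, 45.01 and 50.04 CPM for H1, 32.1, 34.8, 34.9, 35.3, 35.1, 39.5 and 50.7 CPM for H2A, 73.4, 77.9, 78.2, 80.97, 79.2, 84.4 and 108 CPM for H2B, 5.19, 5.73, 5.53, 5.8, 5.9, 5.9 and 7.07 CPM for H3 and 25.7, 26.4, 26.6, 27.9, 27.1, 28.2 and 36.2 CPM for H4. In every type the 3 libraries at 100 µM stood above those of all other doses. In every type the 10 µM libraries also lay above those of 0 µM, as for H2A, with 39.7, 39.6 and 39.3 CPM in the 10 µM libraries and 33.7, 30.8 and 31.8 CPM in the 0 µM libraries. The margin was narrow for H1, with 44.3 CPM in the lowest 10 µM library and 44.01 CPM in the highest 0 µM library. It was also narrow for H4, at 27.4 and 27.2 CPM. Some lower doses stood wholly above 0 µM too, as H2A did at 0.01, 0.1 and 1 µM. These sums are carried by the few abundant members, HIST1H1C for H1, HIST1H2AC for H2A, HIST1H2BK for H2B and HIST1H4I for H4.

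**Figure D3:**
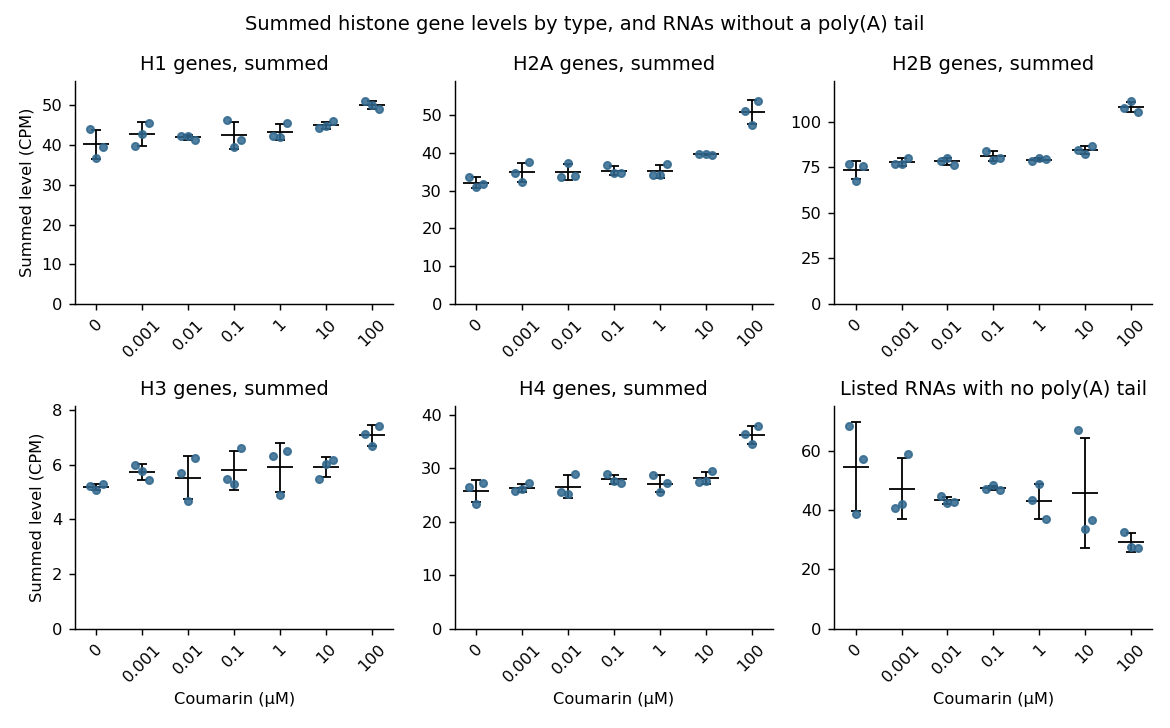
Summed normalised level in CPM (vertical axis, from 0) of the H1, H2A, H2B, H3 and H4 genes and, in the last panel, of 31 listed RNAs that carry no poly(A) tail, by coumarin dose in µM (horizontal axis), with 1 point per library and the mean ± SD of 3 libraries. All 5 histone types are highest at 100 µM, where the listed RNAs without a tail are lowest, at 27.3 to 32.8 CPM.

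Because most histone messages lack a tail, RNAs without one were measured beside them as a gauge of what passes the poly(dT) selection. The 31 listed small nuclear, signal recognition particle and related RNAs summed to 32.8, 27.5 and 27.3 CPM in the 100 µM libraries and 68.4, 38.5 and 57.2 CPM in the 0 µM libraries, and all 100 µM libraries were below all 0 µM libraries. Of the 5 that passed the filter, 1 fell, RN7SL2, an RNA of the signal recognition particle, with 22.5 ± 3.68 CPM at 100 µM and 48.03 ± 15.3 CPM at 0 µM (-1.11, adjusted p = 0.0374), and none rose. RN7SL2 makes up most of that sum. Of all genes tested, 4.82% were called lower in this comparison. All genes of the small RNA biotypes summed to 119 to 126 CPM at 100 µM and 144 to 155 CPM at 0 µM. The sum of RNAs without a tail was thus lower where the histone genes were higher, and its part in the result was not tested. Gene length was measured as well. Of the 1741 tested genes with models of up to 1000 bases, 5.11% were called at 100 µM over 0 µM and the median was 0.01, while the 20 tested members of that length had 9 calls, all higher, and a median of 0.65.

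**Figure D4:**
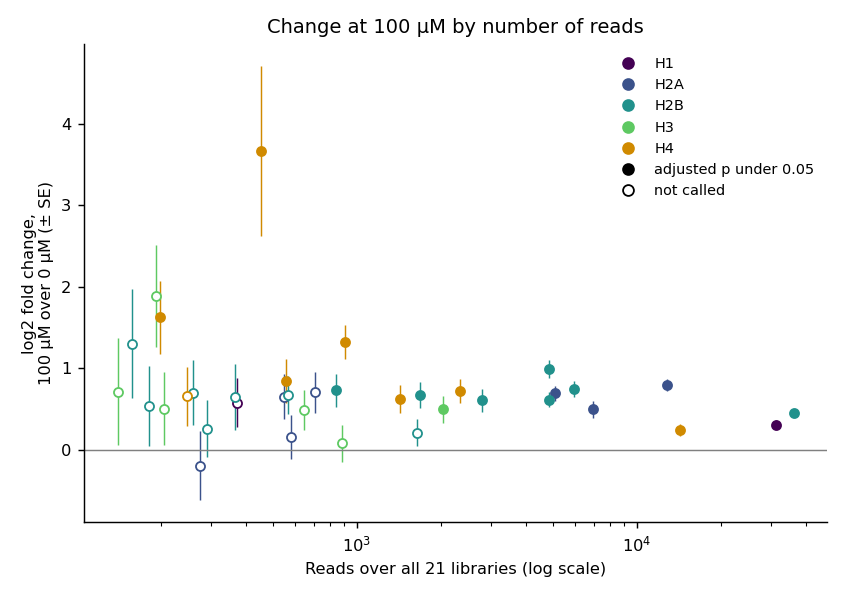
Fitted log2 fold change at 100 µM over 0 µM (vertical axis, with bars of 1 SE) of the 37 tested histone genes against their reads over all 21 libraries (horizontal log axis), coloured by histone type, with filled points for the genes called. The 15 genes with at least 1000 reads have narrow bars and 14 filled points, and the 22 sparser genes scatter more widely on the same side of 0 apart from HIST1H2AJ.

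Genes that act on histone messages and proteins were described by lists, and no list was tested as a set. The background at 100 µM over 0 µM was 8.58% of all genes called in either direction, 3.77% higher and 4.82% lower. Among 20 genes of histone 3′-end processing and turnover, 2 fell at 100 µM and none rose. CPSF2, a subunit of the cleavage complex, had 122 ± 2.68 CPM at 100 µM and 141 ± 7.55 CPM at 0 µM (-0.21, adjusted p = 0.00171), and the helicase gene DHX9 changed by -0.12 (adjusted p = 0.0384). SLBP, which binds the stem-loop, had 115 ± 2.03 CPM at 100 µM and 120.3 ± 2.42 CPM at 0 µM and was not called (-0.07, adjusted p = 0.268). The median of the list was -0.01.

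Of 14 tested genes of histone transcription, 1 fell and none rose, where 4.82% of all genes fell and 3.77% rose. NFYB, a subunit of the CCAAT-binding factor NF-Y, had 34.8 ± 1.34 CPM at 100 µM and 42.8 ± 1.86 CPM at 0 µM (-0.30, adjusted p = 0.000217). NPAT, the coactivator of histone genes at S phase, had 30.6 ± 1.27 and 33.8 ± 3.63 CPM at 100 µM and 0 µM and was not called (adjusted p = 0.224). Of 24 histone chaperone and import genes, 2 fell, RBBP4 (-0.15) and ANP32E (-0.13), and none rose. The list medians were -0.04 and -0.05.

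S phase genes were set beside the histone genes. As above, 8.58% of all genes were called at 100 µM over 0 µM, 3.77% higher and 4.82% lower. Of 33 tested, none rose and 3 fell, MCM10 (-0.18, adjusted p = 0.00706), RFC4 (-0.15, adjusted p = 0.0205) and MCM4 (-0.10, adjusted p = 0.0394), with a list median of -0.03. Of 14 cell cycle arrest genes, 2 rose and 1 fell. CDKN1A, which encodes the cyclin-dependent kinase inhibitor p21, had 33.9 ± 0.5005 CPM at 100 µM and 25.2 ± 1.44 CPM at 0 µM (0.43, adjusted p = 3.71e-05), GADD45A changed by 0.34 (adjusted p = 3.59e-05) and RB1 by -0.17 (adjusted p = 0.0295). Of 16 genes of the general polyadenylation machinery, 3 rose, CPSF4 (0.23), CPSF1 (0.16) and CSTF2T (0.14), and none fell, with a list median of 0.00.

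The replacement variants have polyadenylated messages that are made outside S phase as well. Of 12 listed, 10 were tested and 2 rose at 100 µM, both linker histones, where 3.77% of all genes rose. H1F0 had 128 ± 3.14 CPM at 100 µM and 108 ± 8.04 CPM at 0 µM (0.25, adjusted p = 0.000436), and H1FX 133 ± 9.2 and 107 ± 9.84 CPM (0.31, adjusted p = 0.0273). The 10 had a median log2 fold change of 0.04, against 0.65 for the 37 clustered genes.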

How the data were processed

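The deposited gene table holds whole-number counts of reads per gene, made by the authors, and a second deposited table holds the authors' FPKM values. HISAT2, DESeq2 and GRCh38 are named without versions in the submitters' processing notes. The counter, its treatment of strand and of reads that fit several genes, and the gene annotation used were not given in the sources used here. All 71 members had the coordinates of GENCODE release 29, whose transcripts were searched.

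Counts were tested with edgeR 4.0.16 in R 4.3.3: filterByExpr, TMM factors, 1 robust quasi-likelihood fit over the 7 groups and 21 libraries, and Benjamini-Hochberg adjustment over 16196 genes. The fit was tested on simulated data. The members and lists were chosen with earlier results of these data known. The text names each member that passed the filter, the 3 deepest that did not, and up to 4 genes of each list with the smallest p. SLBP was named after its values were seen. Alternatives were DESeq2 1.42.0, limma 3.58.1 on log2(FPKM + 1) and log2(FPKM + 0.1), other filters and scaling, a length offset and each library left out. Motifs and 50-base words were counted in Python 3.11.15.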

Additional observations from a re-analysis of the deposited data

How the results depend on the processing

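With a test against a 2-fold change in place of 0, the members called fell to 3 at 100 µM over 0 µM, 0 at 100 µM over 10 µM, 1 at 100 µM over the mean of the lower doses and 0 at 10 µM over 0 µM. In the same order, 59, 36, 40 and 0 of all genes were called, in place of 1390, 734, 1592 and 52. The 10 µM count of 2 was 4 with no filter on low counts, where 302 genes of all were called in place of 52 (155 with DESeq2), and 0 with limma on log2(FPKM + 1) or log2(FPKM + 0.1) (25 and 26 of all genes). Every other setting kept the members' counts within 1.5 times, with 14 (DESeq2) to 20 at 100 µM over 0 µM, where the main count was 19, and 16 with an offset for gene length. Leaving out each library in turn gave 12 to 21 members at 100 µM over 0 µM (12 without the second 0 µM library, where 774 genes of all were called in place of 1390), 0 to 3 at 10 µM over 0 µM, 5 to 12 at 100 µM over 10 µM, 14 to 20 over the mean of the lower doses, 8 to 15 over the 7 groups and 9 to 12 for slope. The all-gene counts moved as well. Without the third 100 µM library, 948 genes of all were called over the mean of the lower doses, in place of 1592. Over the 7 groups the count was 391 without that library and 1144 without the first 0.1 µM library, in place of 753. At 10 µM over 0 µM it was 7 without the third 10 µM library and 164 without the first 0.1 µM library, in place of 52. With all libraries kept, all-gene counts also moved by more than 1.5 times over the 7 groups, 1415 with no filter and 1139 with DESeq2 against 753, and at 100 µM over 10 µM with the 2 groups fitted alone, 1168 against 734. HIST2H2BE at 10 µM over 0 µM ran from -0.12 without the first 10 µM library to 0.20 without the second, against 0.06 with all libraries. At 100 µM over 0 µM the calls lost most often, of 30 to 32 settings, were HIST1H3H (20), HIST1H4E (15), HIST2H4B (14), HIST1H4I (8), HIST1H2BO (5), HIST4H4 (5), HIST1H4J (2) and HIST1H2BC (2). In the settings counted, the other 11 lost theirs under the 2-fold test at most, and all fitted changes of the 19 stayed positive. DESeq2, which called 14 members, was not counted as a loss for any of the 19, so these counts leave out losses under it. HIST1H4K, HIST1H2BO, HIST1H4E and HIST2H4B had 31 settings and HIST1H4J 30, against 32 for the rest of the 19.

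Libraries with the same replicate number did not deviate together over genes: of 63 pairs the correlation was -0.21 to 0.22 (median 0.02), 6 were over 0.1, and 7 of 21 libraries correlated best with their own number. The numbers were therefore not taken to pair the libraries. With a replicate block the members called were 17 at 100 µM over 0 µM (1350 genes of all), 12 at 100 µM over 10 µM, 2 at 10 µM, 19 over the mean of the lower doses, 12 over the 7 groups and 11 for slope. Depth limits the precision for the 22 tested members with fewer than 1000 reads.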
